A study of Homo sapiens with 9 samples.

Results

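The desmosome and envelope plakin genes described here are DSP, DSG2, DSC2, DSC3, PKP1, PKP2, PKP3, JUP, PPL and EVPL, a listed set of 10 genes out of 58237 measured. They were followed by RNA-seq of total RNA in H358 cells, an established line from a human lung cancer of the non-small cell type, kept in RPMI with 10% serum. One group of 3 libraries came from cells with a CRISPR knockout of SMARCA4, which encodes the chromatin remodelling ATPase BRG1 (BRG1 KO). A second group of 3 came from cells with a CRISPR knockout of SMARCA2, which encodes its paralogue BRM (BRM KO), and the last group was the parental line (Parental, 3 libraries). The labels do not say whether a knockout was 1 clone or a pool, nor whether replicates are separate cultures. The p-values therefore cover the spread among these libraries alone, and that spread may be technical. The parental line was the only control, and effects of editing and of clonal selection cannot be told apart from those of the lost gene.

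Desmosomes are button-like junctions that join neighbouring epithelial cells and anchor their keratin filaments. The desmogleins and desmocollins (here DSG2, DSC2 and DSC3) are cadherins that span the membrane and bind those of the next cell. Their tails hold the armadillo proteins plakoglobin (JUP) and the plakophilins (PKP1, PKP2 and PKP3), which bind desmoplakin (DSP), the plakin that ties the plaque to keratin. Periplakin (PPL) and envoplakin (EVPL) are related plakins, best known from the cornified envelope of stratified epithelia, where they join desmosomes and filaments. Simple epithelia mostly use DSG2, DSC2 and PKP2, while DSC3 and PKP1 are mainly made in stratified epithelia.

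In BRG1 KO cells all 8 members that could be tested fell relative to Parental cells, from 4.13-fold for PPL up to 11.2-fold for PKP2 and 11.4-fold for PKP3, where 43.5% of all tested genes changed, 21.9% lower and 21.6% higher. In BRM KO cells 1 member fell, PKP2 by 6.57-fold, 1 rose, EVPL by 1.63-fold (a call lost with a correction for GC content and length), and 6 did not pass the test, where 37.4% of all tested genes changed, 16.4% lower and 21.0% higher. In BRG1 KO against BRM KO cells all 8 were lower, where 45.3% of all tested genes differed, 23.8% lower and 21.6% higher. DSC3 and PKP1 had 0 to 6 reads in every library and could not be tested. The submitters name the genome build hg38, and the genes and positions used here are those of GENCODE 29. DSP lies on chromosome 6 (7541575 to 7586717, plus strand). DSG2, DSC2 and DSC3 lie in the desmosomal cadherin cluster of chromosome 18, DSG2 at 31498043 to 31549008 on the plus strand, DSC2 at 31058840 to 31102522 and DSC3 at 30990008 to 31042815 on the minus strand. PKP1 lies on chromosome 1 (201283452 to 201332993, plus strand), PKP2 on chromosome 12 (32790745 to 32896840, minus strand) and PKP3 on chromosome 11 (392614 to 404908, plus strand). JUP at 41754604 to 41786931 and EVPL at 76004502 to 76027452 share chromosome 17 (both minus strand), and PPL lies on chromosome 16 (4882507 to 4960741, minus strand). All values are sums over the whole gene, exons of every annotated transcript included.

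The promoters of 6 members were available as RefSeq windows of 300 bases on GRCh38.p14, from 250 bases before to 50 after a start site. DSC2 and JUP have 2 windows each, which makes 8 windows, and PKP2, PKP3, PPL and EVPL have none. The windows are shown as a description of the sequence. Among the listed ZEB and SNAI repressors, which bind E-boxes, ZEB1, ZEB2 and SNAI1 were higher in BRG1 KO than in Parental cells. SNAI2 did not pass the test (values below). Of the listed TWIST factors, TWIST1 had no reads in any library and TWIST2 was not called higher. In BRM KO against Parental ZEB1, SNAI1 and SNAI2 fell, while DSP, DSG2, DSC2 and JUP did not pass the test. The part of these repressors in the members' levels was not tested. The E-box CACCTG, searched on both strands, occurs in the 4 windows printed here, where capitals mark it (CAGGTG is the same site read on the other strand).
DSP, chr6:7541421-7541720, plus strand: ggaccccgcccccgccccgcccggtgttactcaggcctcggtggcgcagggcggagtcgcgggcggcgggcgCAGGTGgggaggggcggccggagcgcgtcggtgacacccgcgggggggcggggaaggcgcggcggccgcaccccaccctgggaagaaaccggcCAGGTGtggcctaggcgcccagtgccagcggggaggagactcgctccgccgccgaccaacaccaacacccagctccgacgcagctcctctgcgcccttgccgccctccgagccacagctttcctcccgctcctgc
DSG2, chr18:31497927-31498226, plus strand: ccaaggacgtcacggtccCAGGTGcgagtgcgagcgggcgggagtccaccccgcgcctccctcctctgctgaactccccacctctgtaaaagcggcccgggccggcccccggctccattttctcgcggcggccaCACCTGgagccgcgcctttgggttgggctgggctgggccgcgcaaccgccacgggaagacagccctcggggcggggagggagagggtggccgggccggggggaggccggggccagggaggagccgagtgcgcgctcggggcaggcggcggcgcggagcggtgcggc
DSC2, chr18:31102372-31102671, minus strand: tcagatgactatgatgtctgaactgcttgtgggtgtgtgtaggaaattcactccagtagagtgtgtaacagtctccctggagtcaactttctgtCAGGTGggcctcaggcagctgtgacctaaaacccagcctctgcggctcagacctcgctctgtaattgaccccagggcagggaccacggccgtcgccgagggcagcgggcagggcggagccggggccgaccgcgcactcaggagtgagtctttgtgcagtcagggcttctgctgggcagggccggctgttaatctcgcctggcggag
JUP, chr17:41785927-41786226, minus strand: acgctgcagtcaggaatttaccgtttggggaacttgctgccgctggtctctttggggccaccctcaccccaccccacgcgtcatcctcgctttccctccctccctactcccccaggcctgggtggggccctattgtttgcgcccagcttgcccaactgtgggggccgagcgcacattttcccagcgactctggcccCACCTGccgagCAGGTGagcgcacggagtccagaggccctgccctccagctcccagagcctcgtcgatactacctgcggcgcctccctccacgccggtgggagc
The DSP, DSG2 and JUP windows hold 2 E-boxes each and the DSC2 window 1. The other DSC2 and JUP windows and those of DSC3 and PKP1 hold none, and 20.6% of all 35116 RefSeq promoter windows hold at least 1. The transcripts JUP-201 and JUP-203, with 39.0% and 40.1% of JUP TPM in Parental cells, start at 41786698. That position lies in the other JUP window (41786662 to 41786961), without an E-box. The printed DSC2 window holds the start of DSC2-202 (31102415). Neither DSC2 window holds that of DSC2-201 (31102004), which had 82.4% of DSC2 TPM in Parental cells. The Grainyhead-like motif AACCGGTT was in none of the 8 windows and in 0.134% of all windows, and the AP-1 motif TGANTCA in none of the 8 and in 7.71% of all. A match describes letters in a window and is not a binding site.

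The libraries held between 31969961 and 40679073 estimated reads. SMARCA4 was at 21.1 to 23.9 CPM (read counts scaled by library size with TMM factors) in BRG1 KO libraries, against 212 to 244 CPM in Parental libraries, and SMARCA2 at 9.36 to 12.0 CPM in BRM KO libraries, against 49.3 to 58.0 CPM in Parental libraries. The first principal component, with 56.7% of the variance, placed the BRG1 KO libraries at 115 to 144 and all others between -89.2 and -33.4. The epithelial markers EPCAM, KRT8, KRT18, KRT19, CDH1 and MUC1 summed to 426 to 1182 CPM in BRG1 KO libraries, 4721 to 5485 CPM in BRM KO libraries and 5148 to 5373 CPM in Parental libraries. Of the 6, 5 fell in BRG1 KO cells and none passed the test in BRM KO against Parental. Replicate 3 of BRG1 KO and replicate 1 of Parental stand apart from the others of their groups: chi-square per degree of freedom over genes was 133 and 202 between replicate 3 and the other BRG1 KO libraries, against 57.3 between those, and 63.0 and 50.8 between replicate 1 and the other Parental libraries, against 11.2 between those. BRM KO replicate 2 stood apart in the same way, with 71.6 and 49.8 to the other BRM KO libraries, against 24.2 between those. In bulk RNA, fewer cells of a type and less RNA per cell cannot be told apart.

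The desmosomal cadherins DSG2 and DSC2 were several-fold lower in BRG1 KO cells and near the Parental level in BRM KO cells. DSG2, the desmoglein of simple epithelia, had 45.1, 38.3 and 50.3 CPM in BRG1 KO replicates 1 to 3, 286, 274 and 324 CPM in BRM KO replicates and 246, 335 and 311 CPM in Parental replicates. All 3 BRG1 KO libraries lay below every other library, while the BRM KO and Parental libraries overlapped. DSG2 fell by 2.74 ± 0.18 on the log2 scale in BRG1 KO against Parental (SE, edgeR quasi-likelihood test, adjusted p = 2.2e-06), which is 6.67-fold. Between BRM KO and Parental the log2 difference was -0.01 ± 0.16 (SE, edgeR adjusted p = 0.969), with a 95% interval from -0.37 to 0.35. DSC2, its desmocollin partner, had 19.6, 24.0 and 9.51 CPM in BRG1 KO, 124, 106 and 137 CPM in BRM KO and 96.3, 160.1 and 162 CPM in Parental replicates. Again only the BRG1 KO libraries were separate from the rest. DSC2 fell by 2.98 ± 0.33 on the log2 scale in BRG1 KO against Parental (SE, edgeR adjusted p = 6.52e-05). Its difference of -0.19 ± 0.30 between BRM KO and Parental did not pass (edgeR adjusted p = 0.653, 95% interval -0.87 to 0.48). With BRG1 KO replicate 3 and Parental replicate 1 both left out it became -0.50 and passed (edgeR adjusted p = 0.0215). Without BRM KO replicate 2 alone, which also stood apart, it was -0.10 and did not pass (edgeR adjusted p = 0.861). DSC3, the desmocollin of basal and stratified epithelium, had 3, 0 and 0 reads in BRG1 KO, 3, 1 and 6 reads in BRM KO and 4, 1 and 5 reads in Parental libraries, so a difference was not detectable at this depth.

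**Figure D1:**
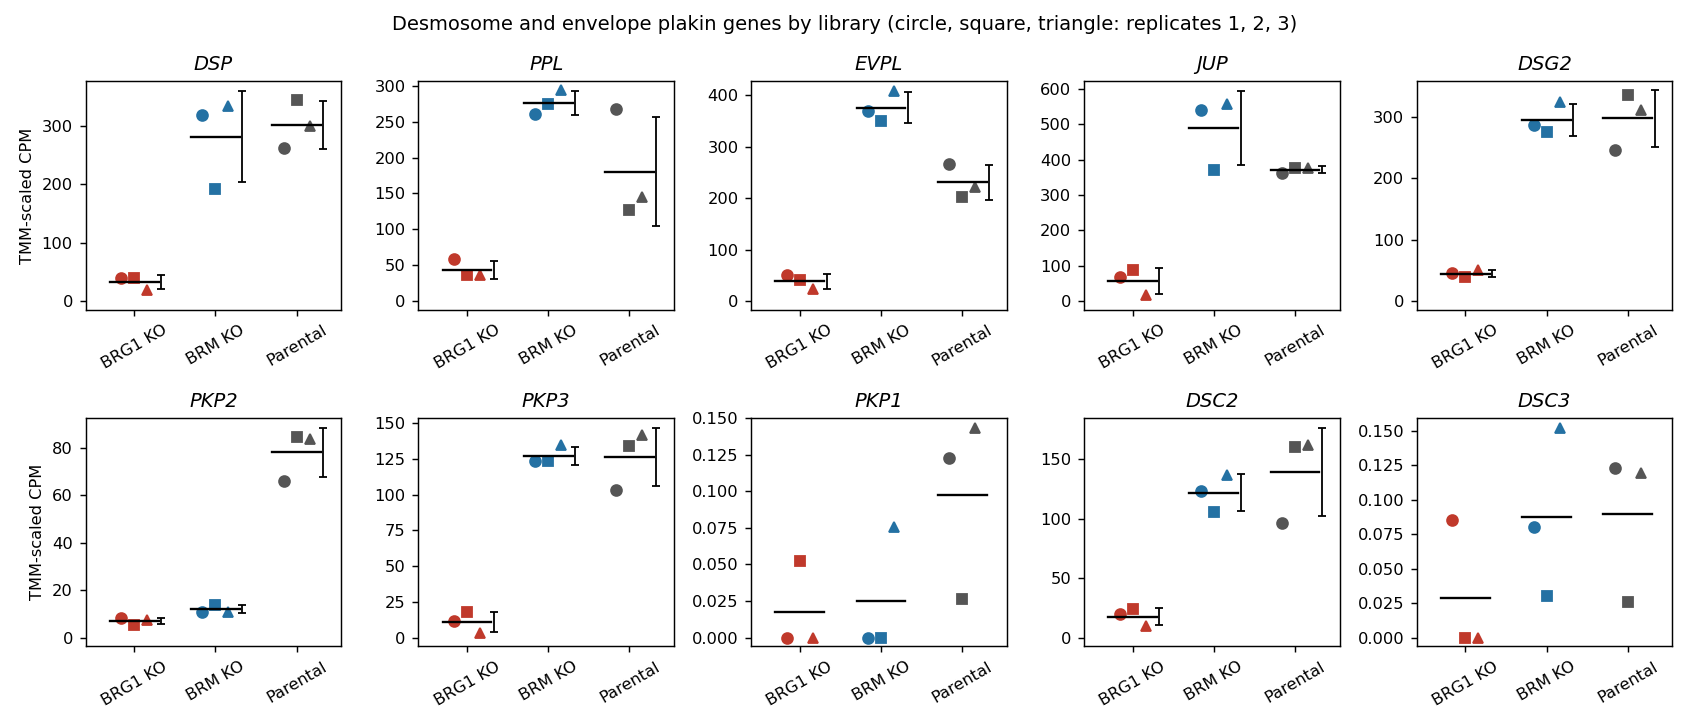
TMM-scaled CPM of the 10 genes in each library (y axis, one panel and scale per gene) for BRG1 KO, BRM KO and Parental; symbols are replicates, black lines group means and error bars SD over 3 libraries (drawn for the 8 tested genes). BRG1 KO libraries lie lowest in all 8 tested genes, PKP2 is also low in BRM KO, and DSC3 and PKP1 stay under 0.2 CPM.

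Among the armadillo proteins, JUP and PKP3 followed the cadherins, while PKP2 was low in both knockouts. JUP, the plakoglobin shared by desmosomes and adherens junctions, had 68.1, 87.7 and 16.3 CPM in BRG1 KO, 541, 369.6 and 557 CPM in BRM KO and 361, 376 and 377 CPM in Parental replicates. JUP fell by 2.70 ± 0.49 on the log2 scale in BRG1 KO against Parental (SE, edgeR adjusted p = 0.00176). BRG1 KO replicate 3 was the lowest library, and without it the fall was 2.32 ± 0.21 (SE, edgeR adjusted p = 1.14e-05). In BRM KO the JUP libraries overlapped those of Parental, and the log2 difference of 0.40 ± 0.46 did not pass (edgeR adjusted p = 0.53, 95% interval -0.63 to 1.43). Replicate 2 was the low BRM KO library, and without it the difference was 0.57 ± 0.51 (SE, edgeR adjusted p = 0.432). PKP3, a plakophilin found in most epithelia, had 11.9, 17.6 and 3.57 CPM in BRG1 KO, 123, 123 and 134 CPM in BRM KO and 103, 134 and 141 CPM in Parental replicates. PKP3 fell by 3.52 ± 0.46 on the log2 scale in BRG1 KO against Parental (SE, edgeR adjusted p = 0.000244), which is 11.4-fold. The size rested on single BRG1 KO libraries: PKP3 fell by 3.16 ± 0.23 without replicate 3 (SE, edgeR adjusted p = 2.53e-06) and by 4.10 ± 0.47 without replicate 2 (SE, edgeR adjusted p = 0.000308). BRM KO and Parental overlapped, with a log2 difference of 0.01 ± 0.41 (SE, edgeR adjusted p = 0.99) and a 95% interval from -0.92 to 0.93.

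PKP2, the plakophilin of simple epithelia and of heart muscle, had 8.07, 5.44 and 7.49 CPM in BRG1 KO, 10.96, 13.8 and 10.9 CPM in BRM KO and 66.0, 84.3 and 83.8 CPM in Parental replicates. Each library of either knockout lay below all Parental libraries, and every BRG1 KO library below every BRM KO library. PKP2 fell by 3.48 ± 0.20 on the log2 scale in BRG1 KO against Parental (SE, edgeR adjusted p = 1.45e-06) and by 2.72 ± 0.20 in BRM KO against Parental (SE, edgeR adjusted p = 3.42e-05). Both comparisons share the Parental libraries. The falls of PKP2 and PKP3 in BRG1 KO were within their errors of each other, and without BRG1 KO replicate 3 that of PKP2, 3.61 ± 0.23 (SE), was the larger. In BRG1 KO against BRM KO it was 1.70-fold lower, a log2 difference of -0.76 ± 0.19 (SE, edgeR adjusted p = 0.00752), which with Salmon's effective lengths as offsets became -0.51 and did not pass (edgeR adjusted p = 0.127). PKP1, the plakophilin of stratified epithelia, had 0, 2 and 0 reads in BRG1 KO, 0, 0 and 3 reads in BRM KO and 4, 1 and 6 reads in Parental libraries. It was not tested.

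Of the plakins, desmoplakin followed the cadherins, and the envelope plakins fell in BRG1 KO cells. In BRM KO against Parental, EVPL alone of the 8 was called higher, and the differences of EVPL and PPL were within their errors of each other. DSP, the link between plaque and keratin, had 40.0, 39.6 and 18.0 CPM in BRG1 KO, 318, 192 and 335 CPM in BRM KO and 262, 345 and 299 CPM in Parental replicates. DSP fell by 3.21 ± 0.33 on the log2 scale in BRG1 KO against Parental (SE, edgeR adjusted p = 3.53e-05), which is 9.29-fold. BRM KO and Parental overlapped, and the log2 difference was -0.10 ± 0.30 (SE, edgeR adjusted p = 0.815) with a 95% interval from -0.76 to 0.56. BRM KO replicate 2 was again the low library, and without it the difference was 0.11 ± 0.30 (SE, edgeR adjusted p = 0.807).

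EVPL, envoplakin, had 51.0, 40.4 and 23.1 CPM in BRG1 KO, 370.5, 349.6 and 409 CPM in BRM KO and 267, 202 and 223 CPM in Parental replicates. The 3 groups did not overlap, with BRG1 KO lowest and BRM KO highest. EVPL fell by 2.60 ± 0.26 on the log2 scale in BRG1 KO against Parental (SE, edgeR adjusted p = 3.01e-05) and rose by 0.71 ± 0.25 in BRM KO against Parental (SE, edgeR adjusted p = 0.0429). With a correction for GC content and length, chosen after the data were seen, the rise was 0.15 ± 0.29 (SE, edgeR adjusted p = 0.716), or 0.15 with the replicate block added (edgeR adjusted p = 0.705). The uncorrected rise did not pass without any 1 of the 3 BRM KO libraries, of Parental replicates 2 and 3 or of BRG1 KO replicate 2, where adjusted p was 0.068 to 0.147 and the difference 0.62 to 0.76. Nor did it pass with DESeq2 size factors in place of TMM (0.66, edgeR adjusted p = 0.0555) or with effective length offsets (0.64, edgeR adjusted p = 0.0692). PPL, periplakin, had 58.3, 36.3 and 36.3 CPM in BRG1 KO, 260.3, 274 and 294 CPM in BRM KO and 268, 127 and 146 CPM in Parental replicates. Parental replicate 1 was at about the BRM KO level and the other 2 Parental libraries well below it. PPL fell by 2.05 ± 0.29 on the log2 scale in BRG1 KO against Parental (SE, edgeR adjusted p = 0.00026). Its difference of 0.61 ± 0.28 in BRM KO against Parental did not pass (SE, edgeR adjusted p = 0.105), but without Parental replicate 1 it was 1.01 ± 0.23 and passed (SE, edgeR adjusted p = 0.00698).

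**Figure D2:**
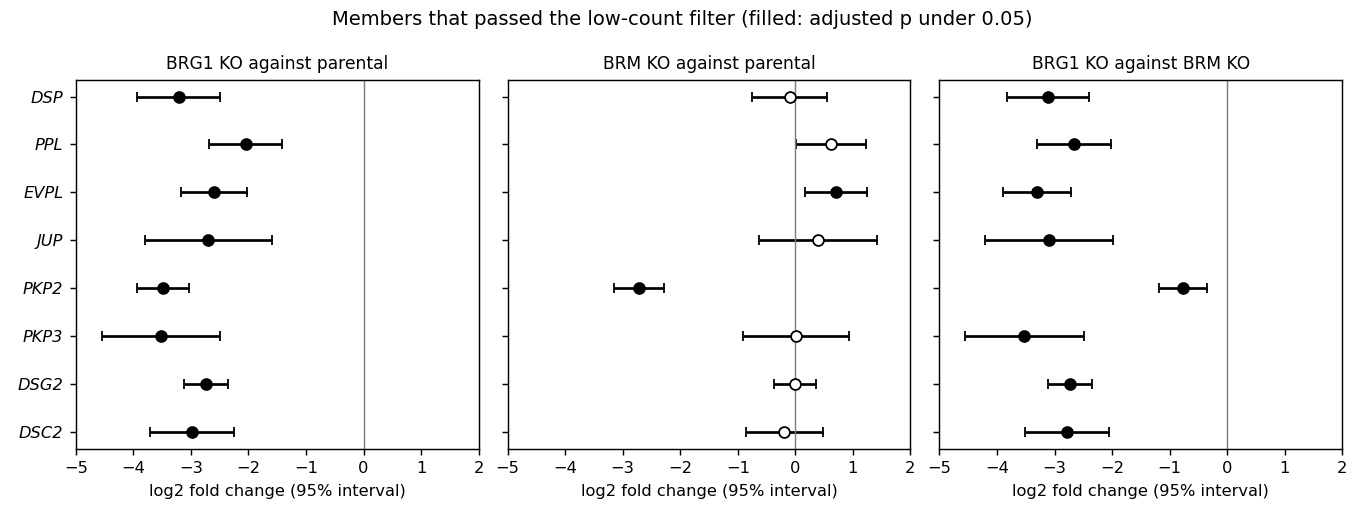
Log2 fold change (x axis) with its 95% interval for the 8 tested genes in BRG1 KO against Parental, BRM KO against Parental and BRG1 KO against BRM KO; filled points passed an adjusted p of 0.05. In BRG1 KO against Parental all 8 lie between -3.52 and -2.05, and in BRM KO against Parental PKP2 alone lies far from 0, at -2.72.

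The median log2 difference over the 8 tested members was -2.86 in BRG1 KO against Parental, and -0.01 over all tested genes. All 8 had every BRG1 KO library below every Parental library, a pattern that 27.1% of all tested genes showed, with 26.1% the other way round. Between BRM KO and Parental the medians were -0.00 over the members and 0.09 over all genes, and the members' 1 call in each direction, 1 of 8, is a share near those of all genes. Libraries of these groups did not overlap for PKP2 (lower in BRM KO, as for 26.1% of genes) and EVPL (higher in BRM KO, as for 32.1% of genes). In the direct comparison of BRG1 KO with BRM KO the medians were -2.94 over the members and -0.00 over all genes. There too the 8 members had every BRG1 KO library lower, as 28.6% of all genes did, while 26.5% had every one higher. The direct log2 differences were -3.11 ± 0.32 for DSP, -2.73 ± 0.18 for DSG2, -2.79 ± 0.33 for DSC2 and -3.52 ± 0.46 for PKP3 (SE). For JUP the difference was -3.09 ± 0.50, for PPL -2.66 ± 0.29 and for EVPL -3.30 ± 0.27 (SE), and adjusted p over the 8 was at most 0.00752 by edgeR's test.

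The BRG1 KO libraries differed among themselves in the depth of the fall. The median log2 ratio of the 8 members to their Parental mean was -2.75 in replicate 1, -2.66 in replicate 2 and -3.59 in replicate 3. JUP, PKP3, DSC2, DSP and EVPL were lowest in replicate 3, while DSG2 was highest there. In BRM KO the medians were 0.03, -0.06 and 0.15, and in Parental libraries -0.21, 0.11 and 0.05. By the root mean square distance between centred log2 CPM over the 9 libraries, the most alike pair was DSP with DSC2 (0.24), then PKP3 with JUP (0.36) and DSP with JUP (0.39). PPL and EVPL were 0.41 apart. The least alike pair was PKP2 with JUP (1.54), and PKP2 was at least 1.15 from each other member. Outside the set, the protein-coding genes nearest to DSP were GPR39 (0.23), PCED1B (0.30), MCF2L (0.32), PLEKHG3 (0.32) and CCN3 (0.33). Nearest to the mean profile of the 8 members were GPR39 (0.21), MCF2L (0.24), C6orf141 (0.25), PLEKHG3 (0.26) and ADAM15 (0.26).

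Levels per transcript length (TPM, as deposited) put JUP first in every group, and the order below it differed between groups. JUP averaged 24.4 ± 13.6 TPM in BRG1 KO, 255 ± 50.1 TPM in BRM KO and 205 ± 14.1 TPM in Parental cells (SD, n = 3 each). In Parental cells PKP3 (78.2 ± 15.3 TPM) and DSG2 (75.3 ± 13.6) came next, followed by EVPL (52.4 ± 4.91), DSP (46.2 ± 7.24), PPL (42.9 ± 17.1), DSC2 (33.6 ± 10.4) and PKP2 (28.7 ± 4.72). Among these neighbours, JUP and PKP3, and DSG2 and EVPL, did not overlap between libraries, and the others did. In BRM KO cells EVPL (81.8 ± 5.79 TPM) came second, before PKP3 (78.1 ± 7.06), DSG2 (71.6 ± 5.47), PPL (65.3 ± 3.66), DSP (41.2 ± 11.2) and DSC2 (24.2 ± 2.90), and PKP2 (4.22 ± 0.53) was separate from all of them. There JUP and EVPL, PPL and DSP, and DSP and DSC2 did not overlap between libraries, and the remaining neighbours did. In BRG1 KO cells DSG2 (10.1 ± 2.68 TPM), PPL (9.72 ± 3.05), EVPL (7.36 ± 2.30), PKP3 (5.48 ± 2.97), DSP (4.52 ± 1.57), DSC2 (3.65 ± 1.10) and PKP2 (2.66 ± 1.08) followed JUP, and every neighbouring pair overlapped. The 10 members together summed to 82.8, 74.3 and 46.7 TPM in BRG1 KO, 644, 538 and 683 TPM in BRM KO and 515, 593 and 579 TPM in Parental replicates.

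The make-up of the plaque RNAs is given without a test. PKP2 was 38.9%, 15.7% and 53.7% of plakophilin TPM in BRG1 KO, 5.29%, 5.84% and 4.33% in BRM KO and 27.7%, 27.3% and 25.8% in Parental replicates. The BRM KO shares lay below those of every other library, and the BRG1 KO shares on both sides of the Parental ones. DSG2 was 72.0%, 61.8% and 83.9% of the TPM of DSG2, DSC2 and DSC3 together in BRG1 KO, 73.4%, 76.2% and 74.7% in BRM KO and 73.6%, 68.4% and 66.8% in Parental replicates. Here BRG1 KO spanned the range of the other groups.

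Most of each member's RNA was assigned to a protein-coding transcript, and the shares of alternative forms are given as Salmon estimated them, without a test. DSP has a long form, DSP-201 (9796 bases, 2871 codons, desmoplakin I), and a short one, DSP-202 (7812 bases, 2272 codons, desmoplakin II). DSP-202 was 47.8%, 54.9% and 13.5% of DSP TPM in BRG1 KO, 14.1%, 15.1% and 17.8% in BRM KO and 22.3%, 13.9% and 16.9% in Parental replicates. BRG1 KO replicates 1 and 2 stood above all other libraries and replicate 3 below them, from 591, 739 and 71.3 estimated reads of DSP-202. DSC2-202 (12325 bases, 901 codons, the longer a form) was 22.5%, 14.5% and 11.8% of DSC2 TPM in BRG1 KO, 27.6%, 31.2% and 31.6% in BRM KO and 19.8%, 16.1% and 17.0% in Parental replicates. BRM KO libraries had the highest shares of it. EVPL-202, with 2055 codons against 2033 in the main form EVPL-201, was 0.615%, 0.506% and 2.26% of EVPL TPM in BRG1 KO, 5.05%, 5.97% and 6.03% in BRM KO and 10.6%, 5.87% and 7.97% in Parental replicates. BRG1 KO libraries had the lowest shares of it. Its mean share, 1.13% in BRG1 KO, 5.68% in BRM KO and 8.13% in Parental, was under the 10% set for describing a form. PKP2-205, a retained intron, met that limit, with a mean of 11.9% of PKP2 TPM in BRG1 KO. It had 35.8% in replicate 1, from 19.4 estimated reads, and 0% in replicates 2 and 3. JUP was split between JUP-201 and JUP-203, which have the same 745 codons.

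**Figure D3:**
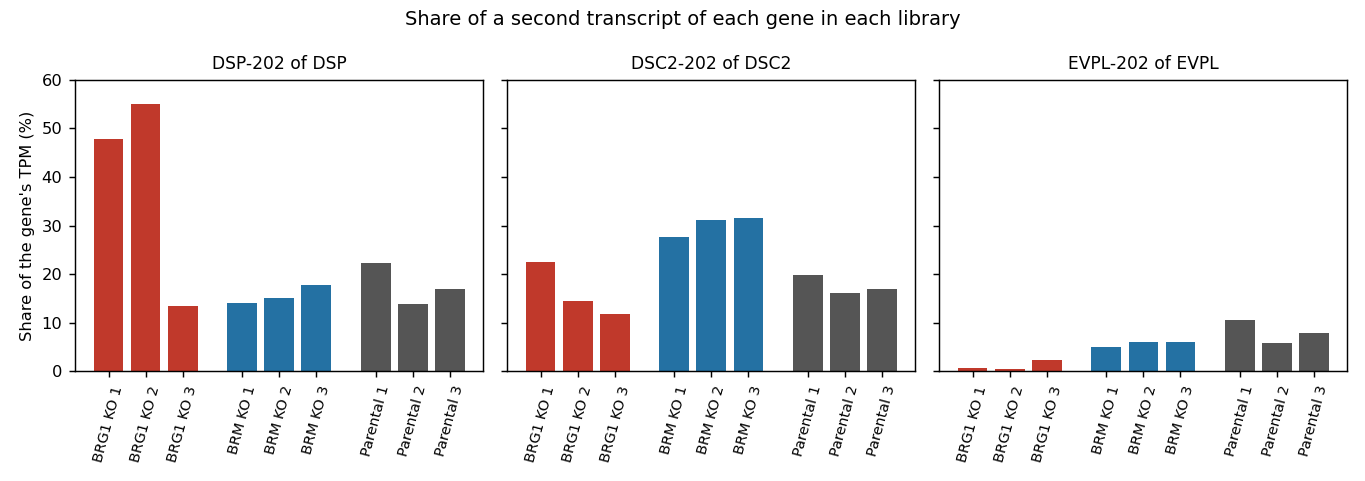
Share of the gene's TPM (y axis, %) assigned to DSP-202, DSC2-202 and EVPL-202 in each library (bars; BRG1 KO, BRM KO, Parental). DSP-202 reached 47.8% and 54.9% in BRG1 KO replicates 1 and 2 and stayed at or under 22.3% in all other libraries.

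Other genes of the desmosome and its neighbours were read from lists drawn up with earlier results of these data known, so their counts are descriptions. Of 8 further desmosomal genes, 4 passed the filter. The desmogleins DSG1, DSG3 and DSG4 and corneodesmosin (CDSN) averaged at most 0.24 CPM in every group. In BRG1 KO against Parental 2 of the 4 fell and 2 did not pass. PERP, a membrane protein that desmosome assembly needs, averaged 25.6 ± 17.0 CPM in BRG1 KO and 151 ± 3.52 CPM in Parental cells (SD, n = 3 each), a log2 difference of -2.56 ± 0.51 (SE, edgeR adjusted p = 0.00298). DSC1 had no reads in BRG1 KO libraries and was at least 12.0-fold lower, against 3 reads over the group. None of the 4 passed in BRM KO against Parental.

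The keratins, to which the plaque is anchored, were 2 higher, 4 lower and 2 not passed of 8 tested in BRG1 KO against Parental, with a median log2 difference of -2.35. KRT7, KRT8, KRT18 and KRT15 fell, and KRT7, a simple epithelial keratin, averaged 72.0 ± 51.6 CPM in BRG1 KO and 1147 ± 73.6 CPM in Parental cells (SD, n = 3 each, log2 difference -3.99 ± 0.55 SE, edgeR adjusted p = 0.000339). KRT17 rose, with 49.8 ± 48.8 CPM in BRG1 KO and 0.465 ± 0.050 CPM in Parental cells (SD, n = 3 each, edgeR adjusted p = 0.000688), and so did KRT5, at 3.51 ± 3.61 CPM in BRG1 KO and 0.085 ± 0.065 CPM in Parental cells (SD, n = 3 each, edgeR adjusted p = 0.00387). Only KRT15 of the 8 rose in BRM KO against Parental, and 7 did not pass, with a median of -0.08.

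Of 4 other plakins, EPPK1 and PLEC fell in BRG1 KO against Parental and 2 did not pass, with a median log2 difference of -0.83. Epiplakin (EPPK1), a keratin-binding plakin, averaged 4.73 ± 2.35 CPM in BRG1 KO and 295 ± 34.3 CPM in Parental cells (SD, n = 3 each), and fell by 5.96 ± 0.39 on the log2 scale (SE, edgeR adjusted p = 2.86e-06). Of the same 4 plakins, 3 rose in BRM KO against Parental (median 1.03): EPPK1 by 1.27 ± 0.32, DST by 1.12 ± 0.35 and MACF1 by 0.94 ± 0.31 on the log2 scale (SE, edgeR adjusted p 0.0101, 0.0297 and 0.0347). Of 12 cornified envelope genes, in whose list PPL and EVPL are not counted, 3 passed the filter, none of them passed the test in BRG1 KO against Parental, and the list summed to at most 10.6 CPM in any library.

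The 7 hemidesmosome genes, which fix epithelial cells to the basement membrane, were 1 higher and 6 lower in BRG1 KO against Parental (median log2 difference -2.62). The same 7 were 3 higher, 2 lower and 2 not passed in BRM KO against Parental (median -0.15), where ITGB4 rose by 1.24 ± 0.21 and LAMA3 fell by 1.74 ± 0.52 on the log2 scale (SE, edgeR adjusted p = 0.00134 for ITGB4 and 0.0256 for LAMA3). Of 11 adherens junction genes, 3 were higher, 7 lower and 1 not passed in BRG1 KO against Parental (median -0.95), and 3 higher, 1 lower and 7 not passed in BRM KO against Parental (median 0.21). Of 14 tight junction genes, none was higher, 12 were lower and 2 did not pass in BRG1 KO against Parental (median -2.52). Between BRM KO and Parental 3 of the 14 were higher and 11 did not pass (median 1.01). Of 7 genes of desmosome turnover, 1 was higher, 2 lower and 4 not passed in BRG1 KO against Parental (median -0.25), and 3 lower and 4 not passed in BRM KO against Parental (median -0.07).

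**Figure D4:**
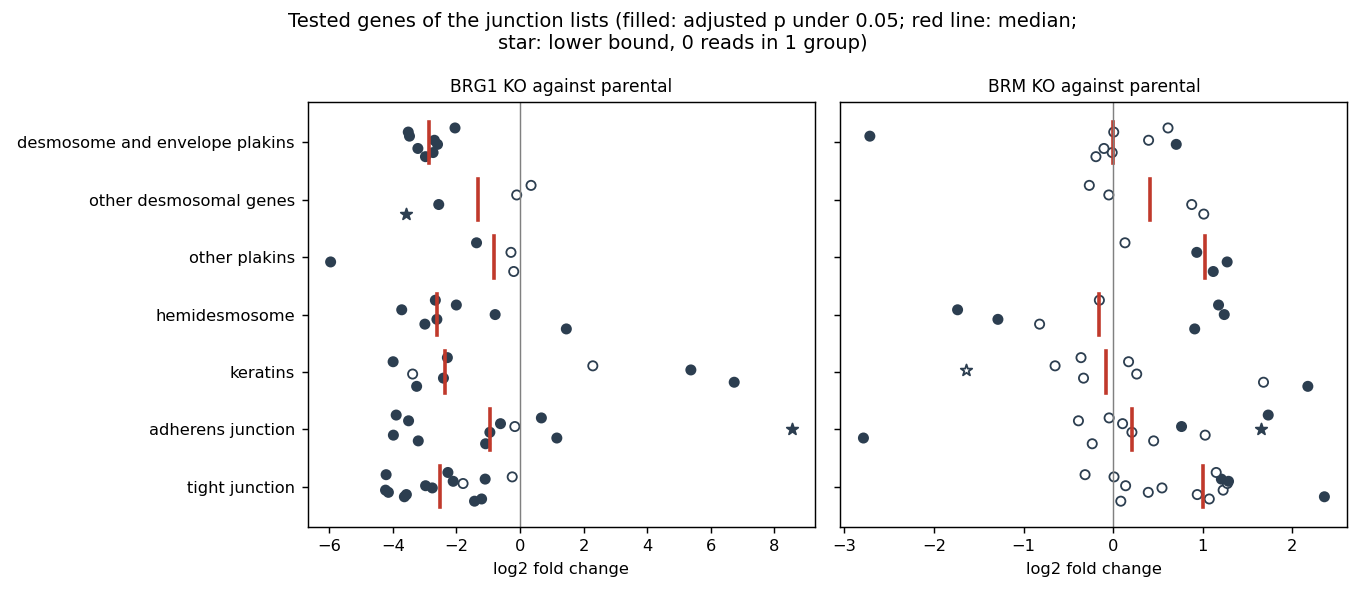
Log2 fold change (x axis) of each tested gene in 7 lists of junction and cytoskeletal genes, in BRG1 KO against Parental and BRM KO against Parental; filled symbols passed an adjusted p of 0.05, red lines are list medians and stars lower bounds for genes with 0 reads in 1 group. In BRG1 KO against Parental all 8 tested desmosome and envelope plakin genes are filled and below 0, with a median of -2.86, while keratins and adherens junction genes lie on both sides.

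Transcription factors of epithelial identity and of the epithelial to mesenchymal transition also differed. Of 15 tested, 3 were higher, 10 lower and 2 not passed in BRG1 KO against Parental (median log2 difference -2.69), and 5 higher, 5 lower and 5 not passed in BRM KO against Parental (median 0.14). The 3 that rose in BRG1 KO were the repressors ZEB1, ZEB2 and SNAI1, named for the E-box search above. SNAI1 averaged 110.2 ± 41.1 CPM in BRG1 KO and 17.1 ± 1.35 CPM in Parental cells (SD, n = 3 each, edgeR adjusted p = 0.000629), and ZEB2 8.04 ± 1.83 CPM in BRG1 KO and 1.54 ± 0.667 CPM in Parental cells (SD, n = 3 each, edgeR adjusted p = 0.000379). SNAI2, a related repressor, averaged 42.3 ± 11.8 CPM in BRG1 KO, 28.1 ± 4.94 CPM in BRM KO and 50.1 ± 15.0 CPM in Parental cells (SD, n = 3 each), and did not pass in BRG1 KO against Parental (edgeR adjusted p = 0.469). In BRM KO against Parental SNAI1 fell by 1.96 ± 0.42 on the log2 scale (SE, edgeR adjusted p = 0.0051) and SNAI2 by 0.83 ± 0.26 (SE, edgeR adjusted p = 0.0259). ZEB1 averaged 38.9 ± 22.0 CPM in BRG1 KO, 1.09 ± 0.45 CPM in BRM KO and 6.74 ± 1.71 CPM in Parental cells (SD, n = 3 each). It was higher in BRG1 KO than in BRM KO by 5.17 ± 0.47 on the log2 scale (SE, edgeR adjusted p = 1.35e-05) and fell by 2.64 ± 0.44 in BRM KO against Parental (SE, edgeR adjusted p = 0.00122). GRHL2, a Grainyhead-like activator of epithelial junction genes, averaged 5.09 ± 4.33 CPM in BRG1 KO and 136 ± 7.70 CPM in Parental cells (SD, n = 3 each, edgeR adjusted p = 0.00215). Their part in the members' levels was not tested.

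Markers of other cell types were read beside these results. Fibroblast markers summed to 393 to 1030 CPM in BRG1 KO, 82.7 to 127 CPM in BRM KO and 32.2 to 63.3 CPM in Parental libraries, and 4 of 6 tested rose in BRG1 KO against Parental. COL3A1 was at 84.4, 109 and 739 CPM in BRG1 KO replicates 1 to 3. The highest sum, 1030 CPM in replicate 3, was thus mostly this gene. COL1A1 was more even, with 247 ± 37.5 CPM in BRG1 KO and 28.5 ± 8.73 CPM in Parental cells (SD, n = 3 each). DCN and FAP stayed at or under 0.53 CPM in every library. Squamous and basal markers summed to 32.0 to 57.7 CPM in BRG1 KO libraries. Their sums were 248 to 399 CPM in BRM KO and 66.3 to 131 CPM in Parental libraries. TP63 was at 250.3 ± 70.8 CPM in BRM KO against 46.4 ± 20.5 CPM in Parental cells (SD, n = 3 each, edgeR adjusted p = 0.00274). The Parental sum was mostly TP63 and SOX2 (40.5 ± 13.2 CPM, SD, n = 3), the 2 tested markers that fell in BRG1 KO against Parental. KRT5 rose there, as given with the keratins, and 2 others did not pass. Over the 5 tested the median log2 difference was positive, so the lower BRG1 KO sum does not describe each marker. Endothelial markers reached 75.5 CPM in BRM KO and 9.85 CPM in the other groups, cardiomyocyte markers at most 10.0 CPM, and blood cell markers at most 9.07 CPM in any library. The endothelial sum in BRM KO was mostly KDR, at 56.5 ± 14.7 CPM, with VWF at 2.88 ± 0.41 CPM (SD, n = 3 each). Of 5 endothelial markers tested in BRM KO against Parental, 2 were higher and 3 not passed. The part of these markers in the members' differences was not tested.

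The members lie on both sides of the median GC content of tested genes. PKP2, DSP and the untested PKP1 lie between its quartiles of 43.7% and 57.3%. DSC2 has 38.0% GC in its transcripts, DSG2 42.0%, PKP2 46.4%, DSP 47.9% and the untested DSC3 39.7%, and PPL has 59.4%, JUP 62.1%, EVPL 64.9%, PKP3 67.0% and the untested PKP1 57.1%, against a median of 49.8% over tested genes. In BRM KO against Parental, the median log2 difference of all tested genes was -0.02 in the GC-poorest of 3 equal-sized bins, 0.05 in the middle bin and 0.29 in the GC-richest. With the correction for GC content and length, under which the rise of EVPL did not pass, PPL was at 0.27 ± 0.27 in that comparison (SE, edgeR adjusted p = 0.456). PKP3 was at -0.52 ± 0.41 under it (SE, edgeR adjusted p = 0.341) and PKP2 at -2.67 ± 0.17. All 8 falls in BRG1 KO against Parental still passed, between -3.83 (PKP3) and -2.13 (PPL).

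**Figure D5:**
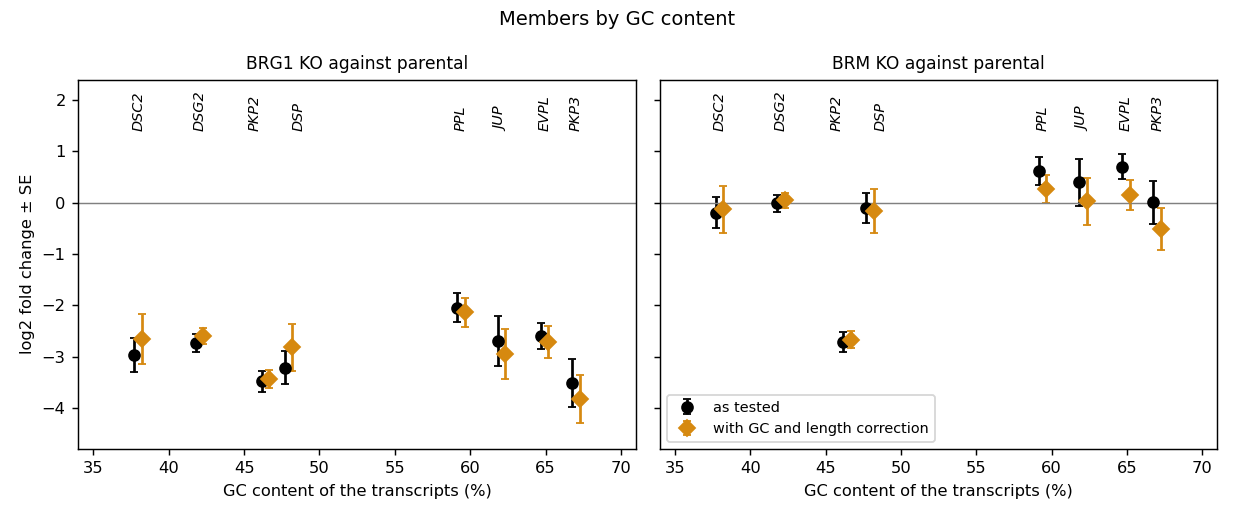
Log2 fold change ± SE (y axis) of the 8 tested genes against the GC content of their transcripts (x axis, %), as tested (black circles) and with a correction for GC content and length (orange diamonds). In BRM KO against Parental, EVPL is at 0.71 as tested and 0.15 with the correction, and PKP2 is near -2.7 in both.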

How the data were processed

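RNA-seq libraries of H358 cells were analysed in 3 groups of 3 (BRG1 KO, BRM KO, Parental). Each deposited file holds the estimated counts that Salmon assigned to each transcript, not normalized, and, per the file headers, TPM values that came from the authors' own run of Salmon. Salmon, DESeq2 and hg38 are named in the submitters' processing notes. Not given in the sources used here are the versions, annotation, library type, strand and bias options. Of 203835 transcripts, 203746 were assigned to a gene of GENCODE 29, and the other 89, with 0.0193% of reads or less in each library, were dropped. Of those assigned, 202888 had the same identifier and version, and the rest were matched by identifier without the version.

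Estimated counts were summed per gene and rounded. filterByExpr kept 18205 of 58237 genes. Libraries were scaled by TMM (CPM in the text), and 1 model over all 9 libraries was fitted with edgeR 4.0.16 in R 4.3.3 (glmQLFit, robust, 6 residual degrees of freedom, common biological coefficient of variation 0.253). Tests were two-sided quasi-likelihood F tests, with Benjamini-Hochberg adjustment over all genes tested and a threshold of 0.05. SE was taken as the size of the log2 fold change over the root of its F statistic, and 95% intervals use the t distribution with the fit's degrees of freedom. The procedure was tested on simulated data. TPM and transcript shares were described without a test. The limit for a described transcript was at least 10% of the gene's TPM in a group mean, which EVPL-202 did not reach. Alternatives used DESeq2 1.42.0, limma 3.58.1 and mgcv 1.9.3.

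The depth was 34676466, 39448251 and 36709911 estimated reads in BRG1 KO, 37710368, 33720255 and 40679073 in BRM KO and 31969961, 37356292 and 40172192 in Parental replicates, so that differences near 0 CPM rest on few reads and counting error limits them. No replicates agreed within sampling noise (chi-square per degree of freedom 11.2 to 202). Strand is not stated: DSG2 shares 171 exon bases with the antisense DSG2-AS1, to which 11 reads in all were assigned. The members and gene lists were chosen with earlier results of these data known. Named genes were all members, up to 4 called genes per further list with the largest absolute change and a mean of at least 1 log2 CPM, and the 5 genes nearest to DSP and to the members' mean; KRT8, KRT18, ZEB2, SNAI2, DSC1 and the low desmogleins were named after their values were seen.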

Additional observations from a re-analysis of the deposited data

How the results depend on the processing

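The count of 8 members lower in BRG1 KO than in Parental held under every alternative run (another scaling, DESeq2's Wald test, limma voom, no or a stricter low-count filter, only the libraries compared, effective length offsets, the replicate block, GC and length correction, each library left out in turn, and both outlying libraries left out). In BRG1 KO against BRM KO it was 7 with effective length offsets, where PKP2 was not called, and 8 otherwise. In BRM KO against Parental, where 1 member was higher, none was with DESeq2 size factors, effective length offsets (0), GC and length correction (0) or that correction with the replicate block (0), 2 were with the replicate block or without both outlying libraries, and 0 to 2 with 1 library left out. In that comparison 1 member was lower, and 2 without both outlying libraries. The outlying libraries left out together were BRG1 KO replicate 3 and Parental replicate 1, and BRM KO replicate 2 was kept there.

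Differences near 0 in BRM KO against Parental changed sign without passing the test. DSG2 was at 0.045 with the GC and length correction, 0.049 with the block added, 0.0036 with the stricter filter and -0.129 to 0.083 with 1 library left out. DSP ranged from -0.293 to 0.113 with 1 library left out. PKP3 was at -0.225 without both outlying libraries, -0.047 with DESeq2 size factors, -0.046 by DESeq2's Wald test, -0.0026 with effective length offsets, -0.519 with the GC and length correction, -0.498 with the block added, -0.094 without a filter, -0.084 with only the libraries compared, and -0.119 to 0.096 with 1 library left out. The cause was not tested. EVPL's rise was 0.655 with DESeq2 size factors (adjusted p = 0.0555) and 0.637 with effective length offsets (adjusted p = 0.0692).

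Correlations of same-numbered deviations were -0.08 to 0.17. The labels do not say whether replicate numbers pair the samples, and such small correlations cannot settle it. With the replicate block PPL passed in BRM KO against Parental (0.71, adjusted p = 0.0378 by edgeR). DSC3 and PKP1 were too low to test at this depth.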
